A study of Mus musculus with 7 samples.

Results

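The genes described here are the ligands Tnf, Ltb, Tnfsf13b and Tnfsf14, the receptors Tnfrsf1a and Tnfrsf1b, the adaptors Traf1 and Traf2, and Tnfaip2, a gene named for its induction by tumor necrosis factor (TNF). They were chosen by gene symbol, and all 9 were found among the 23361 genes of the expression table. Macrophages had been sorted from the regenerative bridge, the tissue that grows between the nerve stumps inside a conduit, after transection and repair of the left sciatic nerve in wild-type mice of the inbred strain BALB/cJ. The mice received meloxicam around surgery, and their age was not given in the sources used here for this experiment. Sorted cells carried F4/80, CD14, CD11b and CD16/32 and lacked the lineage markers of granulocytes, eosinophils, B cells, T cells, red blood cells and fibroblasts. RNASeq libraries came from day 5 (n = 3), day 14 (n = 2) and day 28 (n = 2) after repair. All 7 came from injured nerve, so levels are compared between time points and not with intact nerve.

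TNF is made as a trimer in the cell membrane and is shed as a soluble cytokine by the protease ADAM17. It binds TNFR1 (Tnfrsf1a), which most cells carry, and TNFR2 (Tnfrsf1b), which is found mainly on immune and endothelial cells and responds best to the membrane form. TNFR1 recruits the adaptors TRADD and TRAF2 and can switch on NF-kB or start cell death, and TNFR2 binds TRAF2 directly. The other ligands belong to the same superfamily: lymphotoxin beta (Ltb) anchors lymphotoxin alpha to the membrane and acts on LTBR, LIGHT (Tnfsf14) acts on HVEM (Tnfrsf14) and LTBR, and BAFF (Tnfsf13b) is a survival factor for B cells. In injured nerve, macrophages and Schwann cells are known sources of TNF, which is associated with degeneration distal to the lesion and with neuropathic pain.

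Tnf and Ltb are neighbors on mouse chromosome 17 and are transcribed from opposite strands (GRCm38, GENCODE genes). Ltb occupied chr17:35194439-35196320 on the plus strand and Tnf chr17:35199381-35202007 on the minus strand, with 3060 bases between them. Lta, which encodes lymphotoxin alpha, lay on the other side of Tnf at chr17:35203165-35205351 on the minus strand. Tnfsf14 lay farther along the same chromosome at chr17:57189492-57194177 on the minus strand. Among the receptors, Tnfrsf1a lay at chr6:125349362-125362484 (plus) and Tnfrsf1b at chr4:145213463-145246870 (minus). Traf1 lay at chr2:34941750-34961772 (minus), Traf2 at chr2:25517982-25546940 (minus), Tnfaip2 at chr12:111442469-111455018 (plus) and Tnfsf13b at chr8:10006467-10039072 (plus). Ltb overlapped the microRNA gene Mir6973a on its own strand, and Tnfsf13b, Traf2 and Tnfaip2 overlapped Gm44789, Gm13433 and Gm40578 on the opposite strand. Whether counting used strand is not given in the sources used here, so reads from these partners cannot be told apart. Promoter sequences of all 9 genes were present in RefSeq (GRCm38.p6), and those of Tnf, Ltb and Tnfsf14 are shown because Ltb, unlike its neighbor Tnf, was called in a comparison between days, and because Tnfsf14 had the largest difference among the 9 genes between the day 14 libraries. Each runs 5′ to 3′ on the strand of the gene and ends just before the gene's start in GENCODE or RefSeq, whichever is farther upstream. The sequence of Ltb therefore stops short of the RefSeq start from which positions are counted. The sequences cover chr17:35202008-35202257 (minus) for Tnf, chr17:35194257-35194438 (plus) for Ltb and chr17:57194182-57194431 (minus) for Tnfsf14. Capitals mark a TATA box in Tnf, a match to the NF-kB consensus, read on the opposite strand, in Ltb, and an AP-1 motif in Tnfsf14.
Tnf: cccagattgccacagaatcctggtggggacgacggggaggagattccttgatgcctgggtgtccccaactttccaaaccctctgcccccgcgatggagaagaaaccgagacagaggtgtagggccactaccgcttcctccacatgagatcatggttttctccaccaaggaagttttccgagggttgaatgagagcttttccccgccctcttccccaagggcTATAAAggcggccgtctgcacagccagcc
Ltb: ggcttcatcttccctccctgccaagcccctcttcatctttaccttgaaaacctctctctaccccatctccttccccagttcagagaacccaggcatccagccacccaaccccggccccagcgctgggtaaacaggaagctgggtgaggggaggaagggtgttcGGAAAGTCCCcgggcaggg
Tnfsf14: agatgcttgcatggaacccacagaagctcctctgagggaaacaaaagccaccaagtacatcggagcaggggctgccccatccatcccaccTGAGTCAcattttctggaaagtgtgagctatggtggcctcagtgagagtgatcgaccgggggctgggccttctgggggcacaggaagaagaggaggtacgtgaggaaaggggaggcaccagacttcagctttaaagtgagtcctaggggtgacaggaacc

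The 250 bases before each RefSeq start were searched on both strands for 3 motifs: the TATA box as TATAAA, the AP-1 motif as TGANTCA and the NF-kB consensus. Their matches in these sequences did not overlap. The TATAAA of Tnf lay 29 to 24 bases before the start, and 12.4% of 32851 mouse promoters of the same length held these letters. The NF-kB match of Ltb lay 87 to 78 bases before its RefSeq start, with a match in 3.9% of all promoters. The AP-1 motif, found in 6.75% of all promoters, lay 160 to 154 bases before the start of Tnfsf14. Tnfsf13b had more than 1 RefSeq start, and the motif lay 127 to 121 bases before the downstream one. That match lay inside the GENCODE gene, and the window before the upstream start (chr8:10006217-10006466) held none of the 3 motifs. The promoters of Tnfrsf1a, Tnfrsf1b, Traf1, Traf2 and Tnfaip2 held none of the 3 motifs in this window. A match describes letters and does not show that a factor bound there.

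The libraries held 18027190 to 35247116 fragments assigned to genes, and 13209 to 14047 genes had more than 3 fragments. All 9 genes were above 3 fragments in all 7 libraries and passed the expression filter. The 8 macrophage markers in the table were above 3 fragments in every library. Their summed level was 15863 to 21865 FPKM (fragments per kilobase of transcript, relative to the size of the library), mostly Lyz2. Emr1, which encodes the sort marker F4/80, was at 365 to 470 FPKM at day 5 and 195 to 209 FPKM at day 28. Cd3e, a lineage marker used to exclude T cells, had 1 to 5 fragments in every library. The day 14 libraries stood apart from each other. Over 7613 genes, the correlation of log2(FPKM + 1) of day 14 replicate 1 was 0.955 to 0.962 with the day 5 libraries and 0.934 to 0.942 with the day 28 libraries, whereas replicate 2 had 0.934 to 0.937 with day 5 and 0.959 to 0.963 with day 28. Calls that changed without either of them are given both ways, and where 1 library is left out of a pair, the remaining one is assumed to vary like the other groups. In these bulk samples, fewer cells of a type and less RNA per cell cannot be told apart.

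On the FPKM scale, which is adjusted for length, the 9 genes spanned a wide range of levels. Tnf, Tnfrsf1b and Tnfaip2 stood at the top, with mean levels at percentiles 98.7, 98.4 and 98.2 of all detected genes, and their order changed between libraries. Tnfrsf1a was the 4th and Traf1 the 5th of the 9 genes in every library, at percentiles 94.0 and 89.4. Tnfsf14, Traf2 and Ltb followed at percentiles 81.3, 69.1 and 62.5 and exchanged places among the libraries. Tnfsf13b had the lowest level of the 9 in every library, at percentile 37.7.

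**Figure D1:**
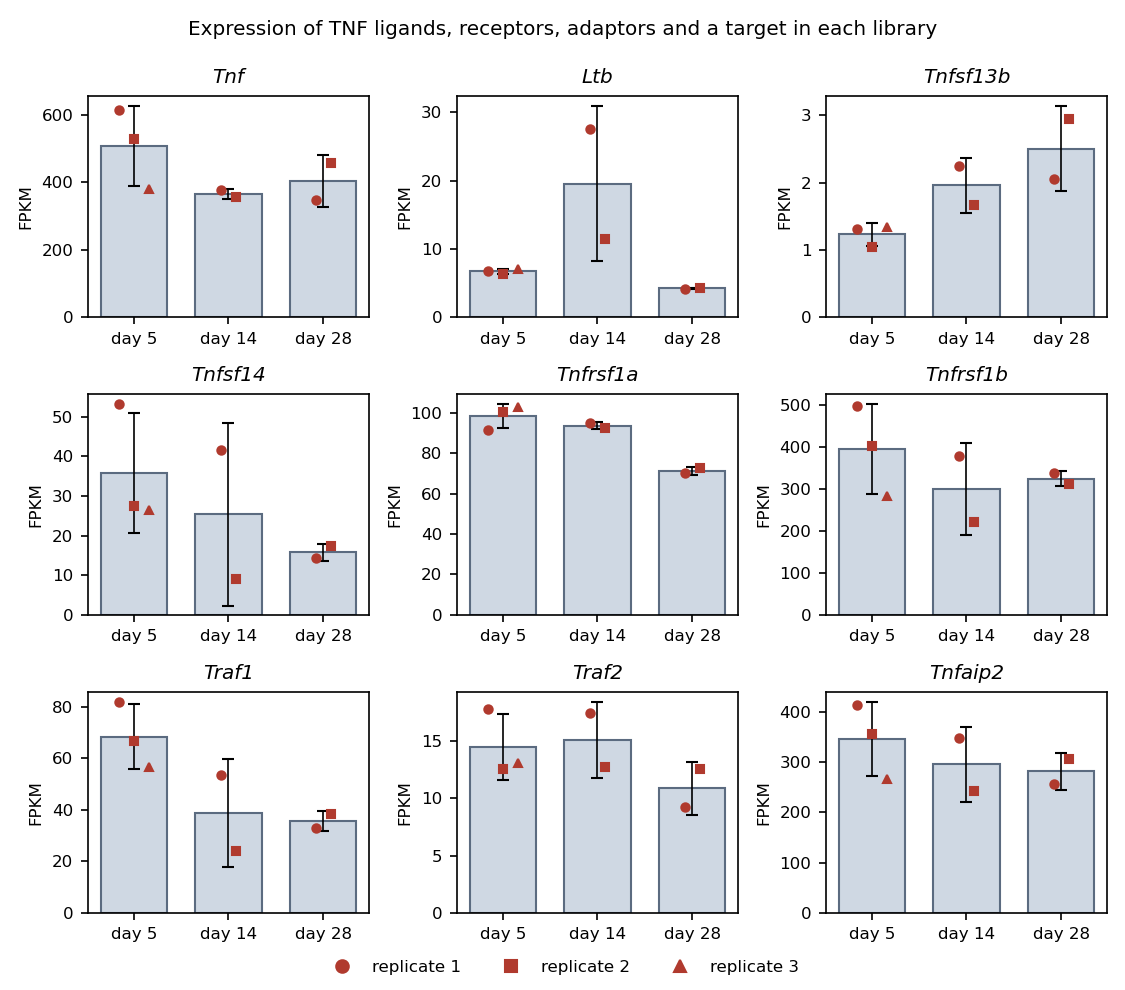
FPKM of the 9 genes in each library at days 5, 14 and 28 after nerve repair, 1 panel per gene with its own vertical axis starting at 0. Points are libraries, bars are means and error bars are the SD (n = 3, 2 and 2). Ltb was highest in both day 14 libraries (27.6 and 11.5 FPKM), and Tnfrsf1a was lower in both day 28 libraries (70.0 and 72.7 FPKM) than in any other library.

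Tnf was abundant at every time point. It stood at 614, 527 and 381 FPKM in day 5 replicates 1, 2 and 3, at 377 and 355 FPKM in day 14 replicates 1 and 2, and at 348 and 458 FPKM in day 28 replicates 1 and 2. The day 14 libraries lay below all day 5 libraries, but by little below the lowest of them, and the day 28 libraries overlapped both other days. Mean levels were 507 ± 118 FPKM (SD, n = 3), 366 ± 15.0 FPKM (n = 2) and 403 ± 77.5 FPKM (n = 2). The log2 fold change was -0.46 from day 5 to day 14 (SE 0.20, 95% interval -0.91 to -0.01, edgeR quasi-likelihood test, adjusted p = 0.199) and -0.32 from day 5 to day 28 (SE 0.20, interval -0.77 to 0.13, adjusted p = 0.309). Day 28 differed from day 14 by 0.14 (SE 0.22, interval -0.35 to 0.63, adjusted p = 0.831). Tnf was not called in any of the 3 comparisons, and the intervals leave room for a decrease of nearly 1 log2 unit between days 5 and 14.

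Ltb was the ligand with the clearest change, and its level was highest at day 14. Its libraries had 6.79, 6.30 and 6.99 FPKM at day 5, 27.6 and 11.5 FPKM at day 14, and 4.17 and 4.30 FPKM at day 28. The 3 days did not overlap, and the day 14 replicates were farther apart than the libraries of either other day. The fragments behind these values numbered 148, 116 and 137 at day 5, 446 and 231 at day 14, and 144 and 74 at day 28. Ltb rose from day 5 to day 14 with a log2 fold change of 1.55 (SE 0.31, 95% interval 0.85 to 2.24, edgeR adjusted p = 0.0314).

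The Ltb difference between days 14 and 28 was larger but did not pass the threshold in the edgeR fit. The log2 fold change was -2.19 (SE 0.36, interval -3.00 to -1.39, adjusted p = 0.0630), and day 28 differed from day 5 by -0.65 (SE 0.33, interval -1.40 to 0.10, adjusted p = 0.214). With all libraries, the difference between days 14 and 28 was called by DESeq2 (adjusted p = 1.74e-06) and without the expression filter (9.86e-05), and over 9 alternative settings its adjusted p ran up to 0.239. The call of Ltb at day 14 was made in 5 of 9 alternative settings. Of these 5, 1 was chosen after seeing the data, a block on replicate number with the day 28 numbers swapped. The call was lost with limma (adjusted p = 0.0618 and 0.0593), in a fit on the 2 days alone (0.0560) and with the replicate block as numbered (0.111). It also depended on single libraries. Without day 14 replicate 1 the log2 fold change was 0.80 (adjusted p = 0.0662), without day 14 replicate 2 it was 2.04 (adjusted p = 0.00153), and without day 5 replicate 1, 2 or 3 or day 28 replicate 1 or 2 it was 1.5 to 1.6 with adjusted p of 0.0998, 0.102, 0.0907, 0.0551 and 0.0579. The difference between days 14 and 28 was called without day 14 replicate 2 (-2.69, adjusted p = 1.94e-04).

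Markers of other cell types were summed beside Ltb. The 7 T cell markers in the table summed to 6.89 to 7.66, 18.1 to 20.8 and 17.5 to 18.4 FPKM at days 5, 14 and 28, mostly Cd4 and Cd2. Lck, a kinase of T cell receptor signaling, had 1, 0 and 5 fragments at day 5, 25 and 12 at day 14, and 8 and 7 at day 28. Of the chains of the T cell receptor complex, Cd3g had 5 and 3 fragments at day 14 and none at the other days, Cd3d had 5, 3 and 1, then 5 and 10, then 1 and 2 fragments, and Cd3e had 1 to 5 fragments on all days. Cd8a, a T cell coreceptor, had 0, 0 and 9 fragments at day 5, 1 and 2 at day 14, and 10 and 1 at day 28. The 5 B cell markers summed to 6.51 to 9.30, 6.26 to 10.8 and 4.42 to 5.08 FPKM at days 5, 14 and 28, nearly all of it Cd79b, and the 7 dendritic cell markers to 8.07 to 13.2, 10.9 to 25.1 and 20.2 to 30.5 FPKM. The 6 fibroblast markers summed to 28.8 to 73.4, 80.3 to 220.5 and 35.1 to 56.8 FPKM, and day 14 replicate 1 had the higher sum of its pair. The 6 neutrophil markers summed to 8.35 to 18.8, 20.2 to 28.4 and 9.29 to 14.5 FPKM, mostly Retnlg (28.0 and 17.7 FPKM in day 14 replicates 1 and 2). Other neutrophil markers were higher in day 14 replicate 2: Ngp (0 and 27 fragments), Ltf (19 and 27), Mpo (3 and 7) and Camp (0 and 5). The B cell and dendritic cell sums of day 14 were higher in replicate 1, whereas the T cell sum was higher in replicate 2. Also higher in replicate 1 were the eosinophil (5.69 and 1.72 FPKM) and endothelial sums (14.4 and 10.5 FPKM). So were the natural killer cell (1.07 and 0.235 FPKM), Schwann cell (0.685 and 0.0865 FPKM) and mast cell sums (0.329 and 0.197 FPKM). These last sums were no more than 1.20 FPKM in any library. The part of these cells in the Ltb values was not tested.

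Tnfsf14 had the largest difference among the 9 genes between libraries of a day on the log2 scale, at day 14. Its libraries stood at 53.2, 27.6 and 26.6 FPKM at day 5, 41.7 and 9.07 FPKM at day 14, and 14.3 and 17.3 FPKM at day 28. Both day 28 libraries lay below all day 5 libraries, while the day 14 libraries spanned the day 28 range on both sides. No comparison was called: the log2 fold change was -1.17 from day 5 to day 28 (SE 0.53, 95% interval -2.37 to 0.03, adjusted p = 0.168), -0.50 from day 5 to day 14 (SE 0.52, adjusted p = 0.602) and -0.67 from day 14 to day 28 (SE 0.57, adjusted p = 0.674). The result turned on the day 14 library that was kept. Without replicate 1, day 14 differed from day 5 by -1.96 (adjusted p = 0.00622) and day 28 from day 14 by 0.79 (adjusted p = 0.493). Without replicate 2, the same values were 0.23 (adjusted p = 0.795) and -1.40 (adjusted p = 0.0384). The decrease from day 5 to day 28 was called without either of them (adjusted p = 0.00963 and 0.0103), without the expression filter (0.0211) and in a fit on the 2 days alone (0.0104).

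Tnfsf13b was the only one of the 9 genes with a positive log2 fold change from day 5 to day 28, at a low level throughout. It stood at 1.32, 1.04 and 1.34 FPKM at day 5, 2.25 and 1.67 FPKM at day 14, and 2.06 and 2.95 FPKM at day 28. All day 14 and day 28 libraries lay above all day 5 libraries. With 32 to 119 fragments per library, the log2 fold change was 1.02 from day 5 to day 28 (SE 0.32, 95% interval 0.29 to 1.75, adjusted p = 0.0630) and 0.67 from day 5 to day 14 (SE 0.33, interval -0.07 to 1.41, adjusted p = 0.253). Day 28 differed from day 14 by 0.35 (SE 0.36, adjusted p = 0.733). On log2(FPKM + 1) and log2(FPKM + 0.1) values, limma called the difference between days 5 and 28 (adjusted p = 0.0389 and 0.0447).

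The receptors for these ligands were measured in the same libraries. Among the BAFF receptors, Tnfrsf13b (TACI) was at 5.13 to 10.8 FPKM over the 7 libraries and did not pass the test between days 5 and 28 (-0.28, adjusted p = 0.621). Tnfrsf13c (BAFF receptor) had 3 fragments in day 5 replicate 1 and none in the other libraries, and Tnfrsf17 (BCMA) had 0 to 31 fragments. Lta, the partner of Ltb, had only 0 to 10 fragments per library, so no fold change is given for it. Tnfsf13 (APRIL), a ligand that shares TACI and BCMA with BAFF, was at 12.2 to 20.0 FPKM (0.19 from day 5 to day 28, adjusted p = 0.497). Both receptors of LIGHT fell: Tnfrsf14 between days 5 and 28 by 0.76 (log2), from 26.4 ± 1.74 to 15.5 ± 3.01 FPKM (adjusted p = 0.0162), and Ltbr, which also binds the lymphotoxin heterotrimer, by 0.45 from 45.9 ± 2.34 to 33.2 ± 1.40 FPKM (adjusted p = 0.0298).

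Of Tnfrsf1a and Tnfrsf1b, only Tnfrsf1a had a called difference, and it varied little between libraries of a day. It stood at 91.4, 101 and 103 FPKM at day 5, 94.8 and 92.3 FPKM at day 14, and 70.0 and 72.7 FPKM at day 28. Both day 28 libraries lay below all others. Tnfrsf1a fell by 0.45 on the log2 scale from day 5 to day 28 (SE 0.11, 95% interval of the log2 fold change -0.69 to -0.20, edgeR adjusted p = 0.0248). The difference from day 14 to day 28 was -0.39 (SE 0.12, interval -0.65 to -0.12, adjusted p = 0.232), and that from day 5 to day 14 was -0.06 (SE 0.11, interval -0.30 to 0.18, adjusted p = 0.768). Of 9 alternative settings, 7 called Tnfrsf1a between days 5 and 28. The call was lost in edgeR with the replicate block, as numbered or with the day 28 numbers swapped (adjusted p up to 0.109). The call at day 28 stood without day 14 replicate 1 or 2 (adjusted p = 0.0129 and 0.0134). It was lost without day 5 replicate 1, 2 or 3 (adjusted p = 0.0506, 0.0910 and 0.0917) and without day 28 replicate 1 or 2 (adjusted p = 0.131 and 0.0738), with log2 fold changes from -0.50 to -0.41 over all 7. Of the 8 macrophage markers, 6 had a log2 fold change below 0 from day 5 to day 28, among them Emr1 (-1.01), Cd14 (-0.76), Fcgr1 (-1.73) and Mertk (-0.13). The other 2, Lyz2 (0.29) and Csf1r (0.11), were above 0. The 5 endothelial markers summed to 15.6 to 26.8 FPKM on day 5 and to 6.03 to 9.70 FPKM on day 28, but 2 of them fell (Kdr by 3.02 and Pecam1 by 1.8 on the log2 scale), 2 rose (Vwf by 2.07 and Tek, which had no more than 2 fragments in any day 5 library) and Cdh5 was not called. The part of these genes in the Tnfrsf1a values was not tested.

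Tnfrsf1b stood at 498, 404 and 284 FPKM at day 5, 379 and 222 FPKM at day 14, and 338 and 313 FPKM at day 28. The libraries of the 3 days overlapped. The log2 fold change was -0.39 from day 5 to day 14 (SE 0.26, 95% interval -0.98 to 0.20, adjusted p = 0.399), 0.12 from day 14 to day 28 (SE 0.28, interval -0.52 to 0.76, adjusted p = 0.896) and -0.27 from day 5 to day 28 (SE 0.26, interval -0.85 to 0.32, adjusted p = 0.520). In every library, Tnfrsf1b exceeded Tnfrsf1a. The ratio of their FPKM values was 5.45, 4.02 and 2.77 at day 5, 4.0 and 2.4 at day 14, and 4.83 and 4.30 at day 28, with no separation of the days.

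Traf1, an adaptor that pairs with TRAF2 and is itself an NF-kB target, had lower levels after day 5. It stood at 81.8, 66.6 and 56.7 FPKM at day 5, 53.5 and 23.9 FPKM at day 14, and 32.9 and 38.5 FPKM at day 28. All day 14 and day 28 libraries lay below all day 5 libraries, although day 14 replicate 1 was close to the lowest of them. The log2 fold change was -0.92 from day 5 to day 28 (SE 0.29, 95% interval -1.58 to -0.27, adjusted p = 0.0626), -0.82 from day 5 to day 14 (SE 0.29, interval -1.47 to -0.16, adjusted p = 0.130) and -0.11 from day 14 to day 28 (SE 0.31, interval -0.81 to 0.60, adjusted p = 0.918). With all libraries, the difference between days 5 and 28 missed the threshold in the edgeR fit and with limma. It passed with DESeq2 (adjusted p = 0.00505), without the expression filter (0.00288) and with the replicate block with the day 28 numbers swapped. An edgeR fit on the 2 days alone, without the day 14 libraries, also called it (0.00170). DESeq2 and the fit without the filter also called day 14 against day 5 (adjusted p = 0.0287 and 0.0134). In edgeR, day 28 against day 5 passed without day 14 replicate 1 or 2 (adjusted p = 0.00145 and 0.00160). Without day 14 replicate 1, day 14 also passed against day 5 (-1.5, adjusted p = 0.00111), whereas without day 14 replicate 2 the value was -0.35 (adjusted p = 0.428).

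Traf2, which recruits the ubiquitin ligases cIAP1 and cIAP2 to the receptor, showed no called difference. Its libraries stood at 17.9, 12.6 and 13.1 FPKM at day 5, 17.5 and 12.8 FPKM at day 14, and 9.24 and 12.5 FPKM at day 28. Both day 28 libraries were below all others, replicate 2 only slightly. Traf2 differed by 0.06 on the log2 scale from day 5 to day 14 (SE 0.20, 95% interval -0.39 to 0.52, adjusted p = 0.880), -0.47 from day 14 to day 28 (SE 0.22, interval -0.97 to 0.03, adjusted p = 0.433) and -0.41 from day 5 to day 28 (SE 0.21, interval -0.87 to 0.05, adjusted p = 0.209). The ratio of Traf1 to Traf2 on the FPKM scale was 4.58, 5.28 and 4.34 at day 5, 3.06 and 1.87 at day 14, and 3.56 and 3.07 at day 28. The day 5 ratios lay above all later ones.

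Tnfaip2, a TNF-inducible gene whose protein takes part in the formation of membrane protrusions, was abundant at all time points. It stood at 414, 356 and 267 FPKM at day 5, 349 and 243 FPKM at day 14, and 256 and 307 FPKM at day 28. The 3 days overlapped. Tnfaip2 had a log2 fold change of -0.22 from day 5 to day 14 (SE 0.21, 95% interval -0.69 to 0.26, adjusted p = 0.570), -0.07 from day 14 to day 28 (SE 0.23, interval -0.58 to 0.45, adjusted p = 0.928) and -0.28 from day 5 to day 28 (SE 0.21, interval -0.76 to 0.19, adjusted p = 0.390).

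**Figure D2:**
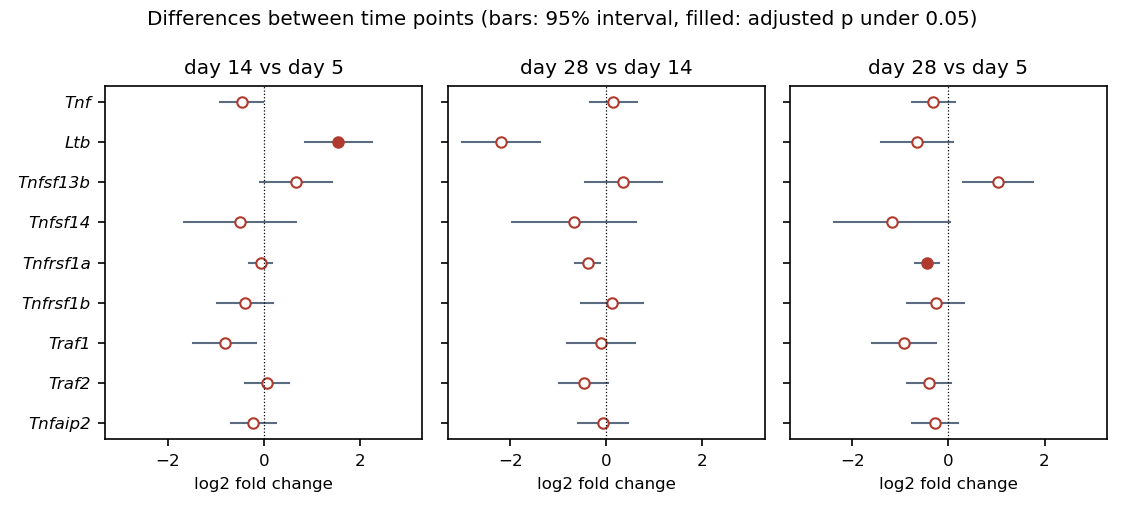
Log2 fold changes of the 9 genes in the 3 comparisons, with 95% intervals from the edgeR fit as horizontal bars. Filled points passed an adjusted p of 0.05 and open points did not. The filled points are Ltb for day 14 against day 5 (1.55) and Tnfrsf1a for day 28 against day 5 (-0.45).

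Counted over the 9 genes, the calls were few. From day 5 to day 14, 1 of 9 was called (11.1%), where 4.78% of the 12858 genes tested were called. From day 14 to day 28, 0 of 9 were called with edgeR, where 0.0622% of all genes were (0.0311% higher and 0.0311% lower). In the same fit, 2 of the 9 had an unadjusted p under 0.05, beside 1570 of the 12858 genes tested. DESeq2 called 1 of the 9, beside 332 of all genes, and limma called 0 of the 9, beside 0 of all genes. From day 5 to day 28, 1 of 9 was called (11.1%), where 15.2% of all genes were. With 1 gene behind each of these shares, they are not set apart from the background. The comparisons share libraries, so they do not support each other.

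The libraries of the days compared did not overlap in FPKM for 4 of 9 genes between days 5 and 14 (44.4%, against 43.2% of all genes tested, 21.9% higher and 21.4% lower), for 3 of 9 between days 14 and 28 (33.3%, all lower, against 39%, of which 19.3% higher and 19.7% lower), and for 6 of 9 between days 5 and 28 (66.7%, against 51.5%). In the last comparison, 5 of the 6 were lower at day 28 (Ltb, Tnfsf14, Tnfrsf1a, Traf1 and Traf2) and Tnfsf13b was higher, where 25.6% of all genes were lower without overlap and 26% higher. The median log2 fold change of the 9 genes was -0.22, -0.11 and -0.41 for day 14 against 5, day 28 against 14 and day 28 against 5, beside 0.03, 0.01 and 0.03 over all genes tested. From day 5 to day 28, 8 of the 9 log2 fold changes were below 0, beside 46.8% of those of all genes tested.

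**Figure D3:**
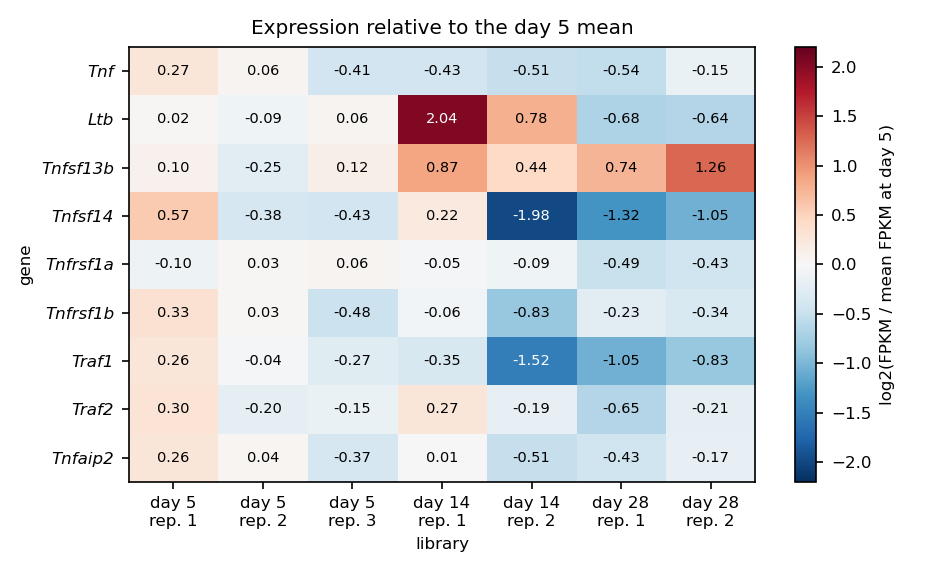
Log2 of FPKM in each library over the mean FPKM at day 5, with genes as rows and libraries as columns; red is above and blue below the day 5 mean. Tnfsf14 (0.22 and -1.98) and Traf1 (-0.35 and -1.52) differed widely between day 14 replicates 1 and 2, whereas Tnfrsf1a (-0.05 and -0.09) did not.

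The difference between the day 14 libraries ran through most of the 9 genes. On the log2 CPM scale, which scales counts to library size, replicate 1 exceeded replicate 2 for all 9, by 2.18 for Tnfsf14, 1.24 for Ltb, 1.15 for Traf1, 0.76 for Tnfrsf1b, 0.51 for Tnfaip2, 0.44 for Traf2, 0.41 for Tnfsf13b, 0.07 for Tnf and 0.03 for Tnfrsf1a. The median absolute difference over the 12858 genes tested was 0.27, and 7 of the 9 genes exceeded it. The absolute difference of Tnfsf14 was at percentile 98.7 of all genes, and those of Ltb and Traf1 were at 93.5 and 92.4, while Tnf and Tnfrsf1a were at 15.4 and 5.73. The day 14 means of Tnfsf14, Ltb and Traf1 are averages of libraries that differ this much.

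Across the 7 libraries, the gene most like each of the 9 in its pattern was named by the Pearson correlation of log2 CPM, among 7555 or 7556 genes with a mean of at least 5 FPKM. With 7 points that share depth and day, these values are descriptions. Traf1 was most like Cflar (0.998), which encodes the caspase-8 inhibitor cFLIP, and 534 genes had a correlation above 0.9 with it. Tnfsf14 was most like Zfand5 (0.996) and Ankrd33b (0.991), with 223 genes above 0.9. Tnf had only 16 such genes, led by Sdccag3 (0.958) and Clp1 (0.937). Ltb was most like Prrg2 (0.982) and Cd300a (0.977), an inhibitory receptor of myeloid cells. Tnfsf13b was most like Dnajb14 (0.982) and Cd22 (0.966), an inhibitory receptor best known from B cells. The receptors Tnfrsf1a and Tnfrsf1b were most like Dbnl (0.979) with Syn1 (0.978), and Psmb6 (0.992) with Utp15 (0.981). Traf2 was most like Fchsd2 (0.967) and Gm1821 (0.965), and Tnfaip2 most like Piezo1 (0.973), a mechanosensitive channel, and Git1 (0.971). Gm1821 resembles other genes in sequence, so its own values are uncertain. Among the 9 genes themselves, the highest correlation was 0.94, between Tnfsf14 and Traf1.

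The rest of the pathway was described from lists of 116 other genes, of which 115 were in the table and 101 were tested. From day 5 to day 14, 3 of the 101 rose and 6 fell, beside 2.84% and 1.94% of all genes. From day 14 to day 28, 0 were called with edgeR, and DESeq2 called 5, beside 8 and 332 of all genes. From day 5 to day 28, 3 rose and 20 fell, beside 7.74% and 7.51% of all genes, and 67 of the 101 had a log2 fold change below 0, with a median of -0.31, beside 46.8% of all genes. Leaving out single libraries moved the 9 calls of the first comparison to 1 (without any 1 day 5 library), 29 and 5 (without day 14 replicate 1 or 2) and 4 (without either day 28 library). It moved the 23 calls of the last comparison to 9, 6 and 11 (day 5 replicates 1, 2 and 3), 41 (either day 14 library), and 3 and 11 (day 28 replicates 1 and 2).

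Of the 14 other TNF superfamily ligands, 9 were tested and none was called by edgeR in any comparison, while of 18 tested receptors the 2 called were Tnfrsf14 and Ltbr. Both were lower at day 28 than at day 5, as were 7.51% of all genes. Among the 31 tested genes of TNF receptor signaling, 2 rose and 7 fell from day 5 to day 28, beside 7.74% and 7.51% of all genes. Traf5, an adaptor of the same family as TRAF2, rose from day 5 to both later days. It stood at 6.12, 7.90 and 5.74 FPKM at day 5, 12.2 and 11.3 FPKM at day 14, and 23.9 and 24.1 FPKM at day 28. The log2 fold change of Traf5 was 0.84 from day 5 to day 14 (adjusted p = 0.0365) and 1.88 from day 5 to day 28 (adjusted p = 7.06e-04), and the difference between days 14 and 28 was 1.04 (adjusted p = 0.0805). Its call at day 14 remained in 1 of 7 fits that left out a library, that without day 14 replicate 1 (adjusted p = 0.0418). Mlkl and Ripk3 act in necroptosis, a form of cell death downstream of TNFR1, and both were lower at day 28. The pore-forming Mlkl fell by 1.18 on the log2 scale from 10.9 ± 2.2 to 4.70 ± 1.07 FPKM from day 5 to day 28 (adjusted p = 0.0112), the kinase Ripk3 by 0.99 from 54.2 ± 5.24 to 27.1 ± 5.08 FPKM (adjusted p = 0.0159), and Birc3, which encodes the ubiquitin ligase cIAP2, by 0.67 from 102 ± 8.29 to 63.5 ± 5.06 FPKM (adjusted p = 0.0212).

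Of 14 tested genes that control TNF release and mRNA decay, 1 rose and 1 fell from day 5 to day 28, beside 7.74% and 7.51% of all genes. Zfp36l2, a protein that promotes mRNA decay, rose by 0.52 from 175 ± 13.1 to 250 ± 4.49 FPKM from day 5 to day 28 (adjusted p = 0.0212). Rhbdf2, which encodes iRhom2, a partner needed to bring ADAM17 to the surface of macrophages, fell by 0.94 on the log2 scale from 93.3 ± 12.6 to 48.4 ± 8.12 FPKM (adjusted p = 0.0309). Adam17 itself averaged 97.8 ± 10.1 FPKM on day 5 against 76.1 ± 3.48 FPKM on day 28 (-0.35, adjusted p = 0.0960). Zfp36, whose protein tristetraprolin degrades Tnf mRNA, was at 1110 ± 43.8 and 855 ± 88.5 FPKM (-0.36, adjusted p = 0.118).

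Among 31 tested genes that TNF is known to induce through NF-kB, 11 fell and 0 rose from day 5 to day 28, beside 7.51% lower and 7.74% higher among all genes tested. Of the 31, 25 had a log2 fold change below 0, as did 46.8% of all genes. From day 5 to day 14, 5 fell and 1, Csf1, rose, beside 1.94% and 2.84%. The largest decreases at day 28 were in Ccl2, a monocyte chemokine, which fell by 1.84 on the log2 scale from 570 ± 72.2 to 158 ± 47.0 FPKM (adjusted p = 0.0237), and in Mmp9, a matrix protease, which fell by 1.69 from 41.7 ± 9.44 to 12.8 ± 0.76 FPKM (adjusted p = 0.00215). Bcl3, a nuclear cofactor of NF-kB, fell by 1.11 (adjusted p = 0.0202) and Ier3, an early response gene, by 0.98 (adjusted p = 0.00625). The median log2 fold change of these targets was -0.46, beside -0.32 for Tnf and 0.03 for all genes tested. Of the named genes outside the 9 that were called between days 5 and 28, Traf5 and Mmp9 were called whichever library was left out, Ier3 and Mlkl in 6 of 7 such fits, Ripk3 in 5, Tnfrsf14 in 4 and Bcl3 in 3. Ltbr, Birc3, Rhbdf2, Zfp36l2 and Ccl2 were called in 2 of 7, those without a day 14 library, with the highest adjusted p at 0.161, 0.146, 0.205, 0.106 and 0.185. The direction was the same in all of these fits. Birc3 is in this list and in that of receptor signaling. These genes also respond to signals other than TNF.

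**Figure D4:**
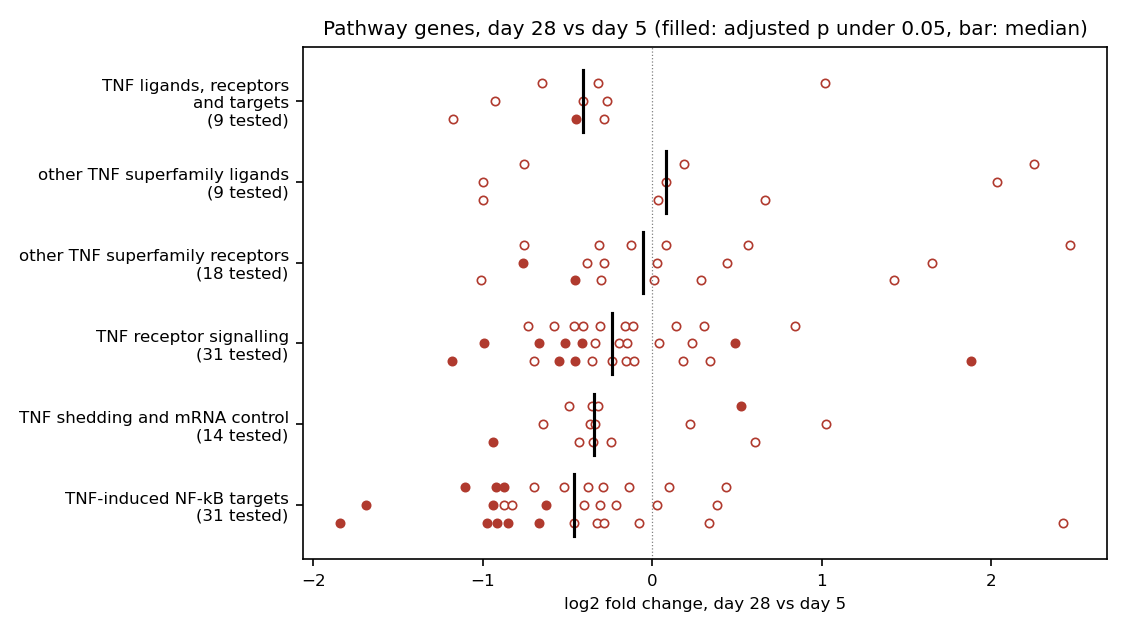
Log2 fold changes from day 5 to day 28 for the 9 genes and for the tested genes of each pathway list, 1 point per gene, with the median as a bar. Filled points passed an adjusted p of 0.05. Points are spread vertically only to keep them apart. In the bottom row 11 of 31 NF-kB targets are filled, all to the left of 0, and the filled point farthest to the right is Traf5 (1.88).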

How the data were processed

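RNASeq libraries of sorted macrophages were made from polyA+ RNA with the NEBNext Ultra kit and sequenced single-end. Per the labels, the authors used cutadapt 1.8 for trimming, TopHat2 2.0.13 for mapping to mm10 and Cuffdiff 2.2.1 for quantification. They deposited the expected counts of fragments per gene (1.01% of values were not whole), the same counts as a scaled signal after 1 factor per library, and FPKM values. How multiply mapped reads were shared and whether strand was used are not given in the sources used here.

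Here, expected counts were rounded, scaled by TMM and filtered for expression within time points. The quasi-likelihood test of edgeR 4.0.16 (R 4.3.3) was run on 12858 genes, and p-values were adjusted over them after Benjamini and Hochberg. All 7 libraries entered 1 fit on time point alone, which left 4 residual degrees of freedom. An adjusted p under 0.05 was a call. Levels are FPKM as mean ± SD, and fold changes are log2 from edgeR, with approximate intervals. Depth was 18027190 to 35247116 fragments, and 3 fragments served as the detection floor, which covers counting error only. Cuffdiff's own test could not be repeated from these files. The scripts were tested on simulated data.

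The 9 genes and all lists were chosen with earlier results of these data known. Other genes were named by rule: up to 4 called genes per list with the largest change between days 5 and 28, partners of the ligands, Adam17, Rhbdf2 and Zfp36, and the 2 genes most correlated with each of the 9, of which 1 is not reported here. The genes of cell type lists, Csf1, and the genes given under other observations were named after their values were seen. Alternatives were DESeq2 1.42.0, other scalings, no filter, limma 3.58.1 on log2 FPKM, fits on 2 time points, an adjusted p under 0.01, a replicate block, and leaving out each library. The study describes 3 samples per time point for this experiment, and 3, 2 and 2 libraries were analysed here. Whether libraries come from separate mice or pools is not given in the sources used here, so p-values measure the spread between these samples, which may be technical.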

Additional observations from a re-analysis of the deposited data

How the results depend on the processing

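Counts are given in the order day 14 against day 5, day 28 against day 14 and day 28 against day 5, for all genes, the 9 genes and the other pathway genes. With all libraries and edgeR they were 614, 8 and 1960 genes, 1, 0 and 1 of the 9, and 9, 0 and 23 pathway genes. DESeq2 gave 1366, 332 and 2485 genes, 2, 1 and 2 of the 9, and 21, 5 and 38 pathway genes. Without the expression filter there were 1429, 390 and 2466 genes, 2, 1 and 3 of the 9, and 22, 6 and 35 pathway genes. limma called 252, 0 and 1802 genes on log2(FPKM + 1) and 277, 0 and 1744 on log2(FPKM + 0.1), with 0, 0 and 2 of the 9 and 4, 0 and 23 pathway genes on both. Fits on the 2 time points compared gave 315, 0 and 2778 genes, 0, 0 and 3 of the 9, and 4, 0 and 41 pathway genes. An adjusted p under 0.01 left 24, 0 and 597 genes, 0, 0 and 0 of the 9, and 1, 0 and 4 pathway genes. RLE and cuffdiff scaling changed no call of the 9. Leaving out single libraries gave 52 to 1728, 0 to 629 and 452 to 2746 genes, 0 to 2, 0 to 2 and 0 to 4 of the 9, and 1 to 29, 0 to 10 and 3 to 41 pathway genes.

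The replicate numbers do not mark a shared animal or day in the labels. Deviations of same-numbered libraries from their day's mean correlated at 0.40 and 0.06 for days 5 and 14 (replicates 1 and 2). The values were -0.14 for days 14 and 28, and -0.05 and 0.03 for days 5 and 28. The 2 libraries of day 14 or day 28 deviate by equal and opposite amounts, so this check cannot decide on pairing. The main fit had no block because the methods name none. With the replicate block there were 6, 0 and 735 genes, 0, 0 and 0 of the 9, and 0, 0 and 7 pathway genes, on 2 residual degrees of freedom, and Traf2 at day 14 against day 5 changed sign (-0.0041). With the day 28 numbers swapped, an alternative chosen after seeing the data, there were 357, 63 and 1579 genes. Of the 9 there were 1, 1 and 1, and of the pathway genes 11, 2 and 27. The 1 of the 9 called for day 28 against day 5 was then Traf1 and not Tnfrsf1a.

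Leaving out single libraries changed the sign of values that were not called: for day 14 against day 5, Tnfsf14 (-1.96 to 0.23), Tnfaip2 (-0.49 to 0.019) and Traf2 (-0.17 to 0.27). For day 28 against day 14, it did so for Tnf (-0.072 to 0.32), Tnfsf14 (-1.40 to 0.79), Tnfrsf1b (-0.21 to 0.55), Traf1 (-0.57 to 0.58) and Tnfaip2 (-0.30 to 0.21). For day 28 against day 5, it did so for Tnfsf13 (-0.096 to 0.41). The cause was not tested. The number of libraries per day limits the precision of all values, and counts of 32 to 119 fragments add counting error for Tnfsf13b.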

Other observations

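Some genes of the list of NF-kB targets moved at day 14, and they were named after their values were seen. Il1b, an inflammatory cytokine of the interleukin-1 family, fell by 0.79 on the log2 scale from day 5 to day 14 (adjusted p = 0.0184), with 1104, 1205 and 1225 FPKM at day 5, 735 and 618 FPKM at day 14, and 783 and 728 FPKM at day 28. Cxcl1, a neutrophil chemokine, fell by 0.75 over the same interval (adjusted p = 0.0366), and stood at 1570 and 1416 FPKM at day 14 and 2045 and 2034 FPKM at day 28. Il6 fell by 1.71 (adjusted p = 0.0388), with 16.6, 25.0 and 12.2 FPKM at day 5, 6.98 and 3.97 FPKM at day 14, and 8.29 and 13.8 FPKM at day 28. Plaur, the urokinase receptor, fell by 0.71 (adjusted p = 0.0253) and Nfkbie, an inhibitor of NF-kB, by 0.70 (adjusted p = 0.0415). Plaur stood at 218 and 176 FPKM at day 14 and at 229 and 256 FPKM at day 28. Cxcl1, Il6 and Plaur were thus higher in both day 28 libraries than in both day 14 libraries. They were not called between days 14 and 28 or between days 5 and 28. Csf1, the growth factor of macrophages, went the other way: it stood at 8.87, 12.6 and 9.92 FPKM at day 5, 24.8 and 22.7 FPKM at day 14, and 13.8 and 13.4 FPKM at day 28, and rose by 1.14 on the log2 scale from day 5 to day 14 (adjusted p = 0.00819). Like Ltb, Csf1 was higher in both day 14 libraries than in any other library. Map3k14, from the list of TNF receptor signaling, was also named after its values were seen. It encodes the kinase NIK of the noncanonical NF-kB pathway that LTBR and the BAFF receptor use, and rose by 0.68 from day 5 to day 14 (adjusted p = 0.0491). As given above, leaving out any 1 day 5 library reduced the 9 pathway calls of day 14 against day 5 to 1.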
